A study of Homo sapiens with 2 samples.

Results

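The genes of epidermal growth factor (EGF) signalling examined here were 3 receptors (EGFR, ERBB2 and ERBB3), 5 ligands (AREG, EREG, HBEGF, TGFA and BTC) and the feedback inhibitor ERRFI1. They were found by matching the RefSeq accession that the scanner files give for each non-control probe to a gene, which returned 15 probes for 9 genes, out of 42405 probes, of which 25771 could be named, and 19740 named genes on the array. All RNA came from RWPE-1, an immortalised, noncancerous line of human prostate epithelial cells grown in a serum-free keratinocyte medium. Cells received either Pre-miR-424, a synthetic precursor of the microRNA miR-424, or Negative control #1, a control oligonucleotide, both at 30 nM, and the design compared the transcripts of the first with those of the second. The 2 RNAs were hybridised together on 2 Agilent two-colour arrays, with pre-miR-424 in Cy5 and control in Cy3 on the first (normal labelling) and the dyes exchanged on the second (dye swap). The labels call the arrays technical replicates, so they counted as 1 replicate, no p-values were computed, and the spread between them covers labelling and hybridisation but not the variation between transfections. The time after transfection and the contents of the medium supplements, EGF included, are not given in the sources used here. The line stands for immortalised cells in culture and not for prostate tissue.

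EGFR, ERBB2 and ERBB3 belong to the ErbB family of receptor tyrosine kinases, which pair with each other after ligand binding and signal through the RAS-MAPK and PI3K-AKT cascades. EGFR binds all the ligands listed above, ERBB2 has no known ligand of its own and acts as a partner, and ERBB3, which binds neuregulins, has little kinase activity and passes its signal on through its partner. The ligands are made as membrane-anchored precursors that ADAM proteases release, and in epithelial cells including those of the prostate they act on the cells that make them or on neighbours. ERRFI1 (also called MIG6) is induced by EGFR signalling and binds the kinase domain of the receptor, which restrains it.

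The transfected microRNA is shown first, because its seed (bases 2 to 8 from the 5′ end, in capitals) is the stretch through which a microRNA mainly pairs with its target transcripts. The mature sequences were taken from RefSeq (GRCh38.p14), where both miR-424 arms lie on the minus strand at chrX:134546680-134546701 (5p) and chrX:134546644-134546664 (3p). The sequence of the transfected precursor itself was not used here.
hsa-miR-424-5p: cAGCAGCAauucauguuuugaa
hsa-miR-424-3p: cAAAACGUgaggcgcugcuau
hsa-miR-16-5p: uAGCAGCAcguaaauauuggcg
hsa-miR-503-5p: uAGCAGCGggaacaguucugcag
Of the 8 mature microRNAs compared, 6 (miR-424-5p, miR-15a-5p, miR-15b-5p, miR-16-5p, miR-195-5p and miR-497-5p) shared the seed AGCAGCA. miR-503-5p, whose gene lies next to that of miR-424, had AGCAGCG, and the 3p arm had the unrelated AAAACGU. Transcript sequences of the members were not used here, so matches to these seeds were not searched.

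The arrays measured the labelled cell type and most members. All 6 markers of basal prostate epithelium (KRT5, KRT14, KRT15, TP63, ITGA6 and ITGB4) and both general epithelial markers (CDH1 and EPCAM) were detected, that is well above background in Cy3 and in Cy5 on each array, against 3 of 6 luminal markers, with KLK3 well above background in no channel. Of stromal markers 4 of 6, of endothelial markers 1 of 3 and of leukocyte markers 2 of 3 were detected, and PDGFRB, COL1A2 and PECAM1 were above it in no channel. The part of these in the results below was not tested. Probes detected in this sense, by the marks of the scanner software, and free of outlier spots are called measured. This held for 25664 probes and 13812 genes, and for 12 of the 15 member probes and 7 of the 9 genes. The brightest measured probe stood for a gene. Values below are log2 ratios of pre-miR-424 over control, and across all measured probes the error of 1 array, from the differences between the arrays, was 0.24 on this scale. In bulk RNA, fewer cells of a kind and less RNA per cell cannot be told apart.

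Differences in the members were small. None of the 12 measured member probes passed 2-fold (a log2 ratio of 1) in the same direction on both arrays, where 0.140% of all measured probes did, and none passed 1.5-fold, where 0.849% did. By sign alone, 7 of 12 probes were lower with pre-miR-424 on both arrays and 1 was higher on both, against 26.4% and 25.0% of all measured probes. The 7 include every EGFR probe, so they do not stand for 7 genes. Over all measured probes the ratios of the 2 arrays had a Pearson correlation of only 0.16, and 48.6% shared no sign. A sign shared by both arrays is therefore weak information on its own. Over genes, EGFR, EREG, HBEGF and AREG were lower on both arrays and ERRFI1 was higher on both, which was 4 and 1 of 7 measured genes against 26.7% and 26.8% of all measured genes. The mean log2 ratio of the 7 genes had a median of −0.22, with −0.14 on the normal labelling and −0.19 on the dye swap, against 0.00 over all measured genes on either array. With outlier spots kept, which adds ERBB2, the median was −0.14, and with no filter on dim probes, which adds BTC, it was −0.11. No member reached −0.3 or less, or 0.3 or more, on both arrays.

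**Figure D1:**
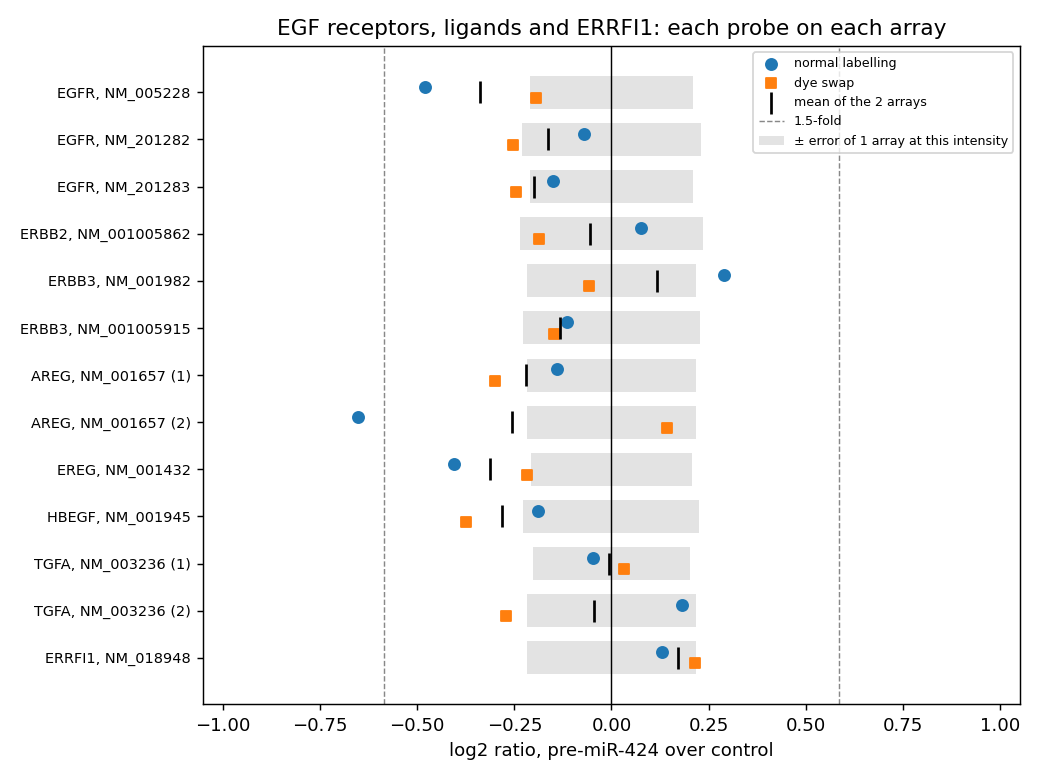
Log2 ratio of pre-miR-424 over control (horizontal axis) for the 13 detected member probes, labelled by gene and RefSeq transcript, with the normal labelling as circles, the dye swap as squares, the mean of both as a black line and the error of 1 array among the 500 measured probes nearest in intensity as a grey band. The 3 EGFR probes, EREG, HBEGF, the first AREG probe and 1 ERBB3 probe lie left of 0 on both arrays, ERRFI1 lies right of 0 on both, and only the second AREG probe passes a dashed 1.5-fold line, on 1 array.

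EGFR had the lowest mean ratio of the members. The probe for its full-length transcript (NM_005228) was printed as 10 spots and read a normalized intensity of 2719 with pre-miR-424 and 3792 with control on the normal labelling, and 3051 and 3492 on the dye swap. Both pre-miR-424 readings were below both control readings. The log2 ratios were −0.48 and −0.19, with a mean of −0.34 ± 0.20 (SD between n = 2 arrays), a level 20.8% lower. The 10 spots ranged from −0.53 to −0.45 on the normal labelling and from −0.29 to −0.10 on the dye swap, so all 20 spot readings were below 0. The spots of 1 array differed by an SD of 0.03 and 0.07, less than the arrays did. Of all measured probes, 3.68% had a lower mean.

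The other 2 EGFR probes carry accessions of shorter transcripts that encode secreted forms of the receptor without its kinase domain. The NM_201282 probe read 590 against 619 and 515 against 614, pre-miR-424 named before control on the normal labelling and then on the dye swap, for log2 ratios of −0.07 and −0.25 (mean −0.16 ± 0.13, SD, n = 2 arrays). The NM_201283 probe read 183 against 203 and 185 against 220, for −0.15 and −0.25 (mean −0.20 ± 0.07, SD, n = 2 arrays). Both were lower with pre-miR-424 on both arrays, by 10.6% and 12.8%. They were less reduced than the full-length probe on the normal labelling, by 0.41 and 0.33, and more reduced on the dye swap, by differences of −0.06 and −0.05, so the arrays gave no common order of the 3 transcripts. The offset added before the log draws ratios of dim probes towards 0. The mean of the NM_201283 probe was −0.24 with an offset of 16, but −0.20 without background correction. It was −0.17 with each array only centred on its median in place of loess. By the scanner software's own ratios, which differ in other steps too, it was −0.30.

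ERBB2 and ERBB3 showed no direction shared by all their readings. The ERBB2 probe (NM_001005862, 10 spots) read 898 against 852 on the normal labelling and 831 against 945 on the dye swap, for log2 ratios of 0.08 and −0.19 (mean −0.05 ± 0.19, SD, n = 2 arrays). It was brighter in Cy5 on both arrays, whichever RNA carried that dye. A single one of its 20 spot readings was marked as an outlier by the scanner software, which kept the probe out of the counts. Without that spot the mean was −0.05 over the remaining 9 spots.

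**Figure D2:**
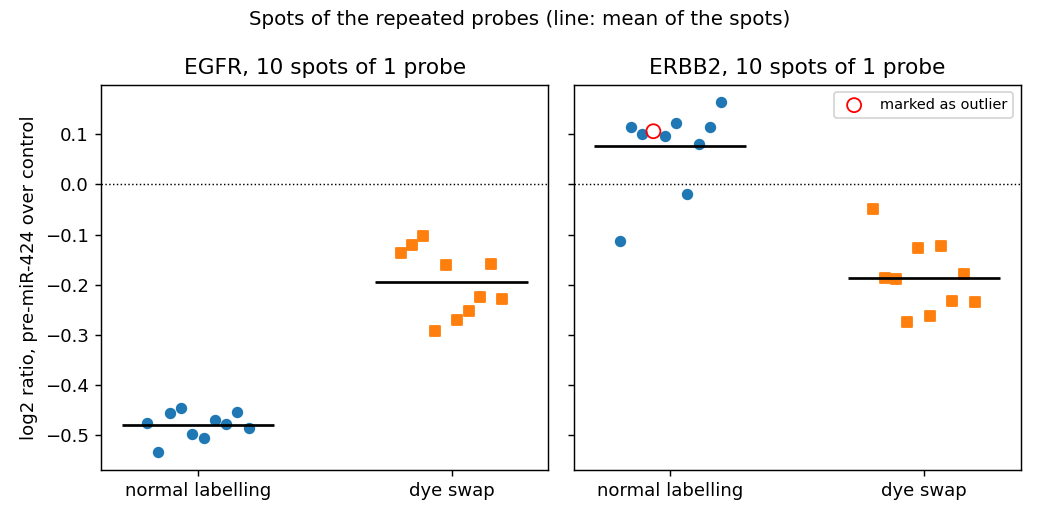
Log2 ratio of pre-miR-424 over control (vertical axis) for each of the 10 spots of the EGFR full-length probe (left) and the ERBB2 probe (right) on the normal labelling and on the dye swap, with a line at the mean of the spots and a red ring at the spot marked as an outlier. All EGFR spots lie below 0 on both arrays, from −0.53 to −0.10, while most ERBB2 spots lie above 0 on the normal labelling and all lie below 0 on the dye swap.

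ERBB3 had 3 probes. The brightest (NM_001982) read 707 against 579 on the normal labelling and 665 against 692 on the dye swap, for 0.29 and −0.06 (mean 0.12 ± 0.25, SD, n = 2 arrays), so the arrays differed in sign. The probe for NM_001005915, a short transcript that encodes a secreted form, read 405 against 438 and 432 against 479, for −0.11 and −0.15 (mean −0.13 ± 0.02, SD, n = 2 arrays). The difference between the probes was −0.40 on the normal labelling and −0.09 on the dye swap, with a combined error of 0.31 for 1 array. The remaining NM_001982 probe, a single spot, was well above background only for control on the normal labelling, 1 of 2 control arrays. Its mean intensity was 101 with control and 92.5 with pre-miR-424, its log2 ratios of −0.32 and 0.06 had opposite signs, and no fold is given.

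Among the ligands, AREG, EREG and HBEGF were lower by their brightest measured probe on both arrays, TGFA was not, and BTC was not well above background. EREG encodes epiregulin, a ligand of EGFR and ERBB4. Its probe (NM_001432) read 7107 with pre-miR-424 against 9419 with control on the normal labelling and 8415 against 9777 on the dye swap. Both pre-miR-424 readings were below both control readings. The log2 ratios were −0.41 and −0.22, with a mean of −0.31 ± 0.13 (SD, n = 2 arrays), a level 19.4% lower. All 4 spot readings were between −0.42 and −0.16, and 4.41% of measured probes had a lower mean.

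HBEGF encodes heparin-binding EGF-like growth factor. Its probe (NM_001945) read 4714 against 5373 on the normal labelling and 4327 against 5614 on the dye swap. The readings with pre-miR-424 were again below both control readings. The log2 ratios were −0.19 and −0.38, with a mean of −0.28 ± 0.13 (SD, n = 2 arrays), a level 17.8% lower. The larger difference was on the dye swap for HBEGF and on the normal labelling for EREG and EGFR.

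**Figure D3:**
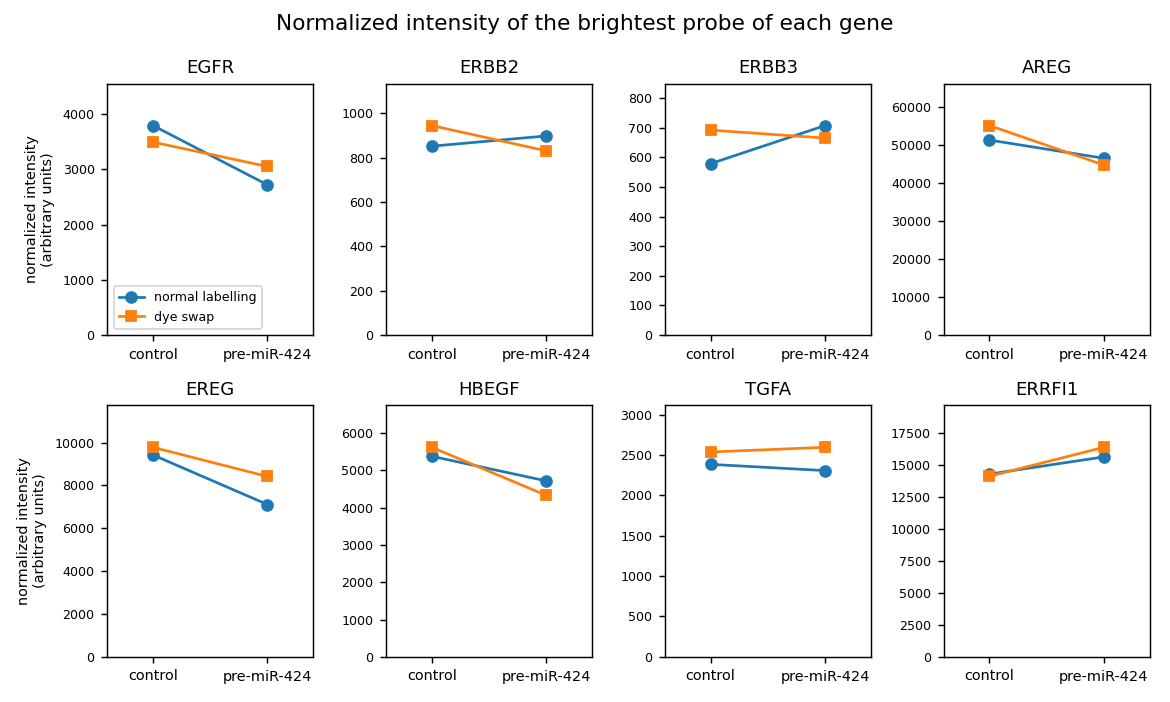
Normalized intensity in arbitrary units (vertical axis, from 0, its own scale in each panel) with control and with pre-miR-424 for the brightest probe of 8 genes, with a line for each array. Both lines run downwards for EGFR, AREG, EREG and HBEGF, both run upwards for ERRFI1, and the lines of ERBB2, ERBB3 and TGFA run in opposite directions.

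AREG encodes amphiregulin and gave bright signals with no saturated spot on either array. Its 2 probes carry the same accession (NM_001657) but did not behave alike. The brighter one read 46417 against 51194 on the normal labelling and 44646 against 55002 on the dye swap, for −0.14 and −0.30 (mean −0.22 ± 0.11, SD, n = 2 arrays), lower with pre-miR-424 on both. With each array only centred on its median in place of loess, the same readings became 0.26 and −0.70, so the direction on both arrays depended on the loess curve. The other probe, a single spot, read 26285 against 41295 on the normal labelling and 31297 against 28365 on the dye swap, for −0.65 and 0.14 (mean −0.25 ± 0.56, SD, n = 2 arrays). Its arrays differed in sign, although under median centring it read −0.32 and −0.18, lower on both, so for both AREG probes the agreement between the arrays depended on the loess curve. Its dye component, the mean over the arrays of the ratio of Cy5 over Cy3, was −0.40, brighter in Cy3. On hg19, the build of the array design, AREG was annotated with a near-identical copy, so both probes may read either.

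TGFA, which encodes transforming growth factor alpha, had 2 probes with the same accession (NM_003236). The first read 2307 against 2385 and 2596 against 2538, for −0.05 and 0.03 (mean −0.01 ± 0.06, SD, n = 2 arrays), and the second read 1901 against 1676 and 1506 against 1818, for 0.18 and −0.27 (mean −0.04 ± 0.32, SD, n = 2 arrays). Each changed sign between the arrays, and the mean of both lay within the error of the mean of 2 arrays at that intensity, 0.14 and 0.15.

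BTC encodes betacellulin, a ligand of EGFR and ERBB4. Its probe (NM_001729) was well above background at 1 of its 2 spots in Cy5 on the normal labelling and in no other channel. The median signals were 128 with pre-miR-424 and 64.0 with control on the normal labelling and 68.3 and 103 on the dye swap, with backgrounds of 69.0 and 66.5 in Cy5 and of 27.0 and 25.5 in Cy3. No fold is given, since neither RNA was well above background.

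ERRFI1 was the only measured member higher on both arrays. Its probe (NM_018948) read 15613 with pre-miR-424 against 14272 with control on the normal labelling and 16362 against 14099 on the dye swap. Both pre-miR-424 readings were above both control readings. The log2 ratios were 0.13 and 0.21 (mean 0.17 ± 0.06, SD, n = 2 arrays), a level 12.7% higher, and the mean was close to the error of 0.15 for a mean of 2 arrays at that intensity. Under median centring the dye swap read −0.01, so the shared direction depended on the loess curve here too.

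The means of EGFR (full-length probe), EREG and HBEGF, at −0.34, −0.31 and −0.28, exceeded that error of 0.15, 0.15 and 0.16, 2.26, 2.13 and 1.76 times. The brighter AREG probe exceeded it 1.44 times, the NM_201283 probe of EGFR 1.34 times, ERRFI1 1.12 times and the NM_201282 probe of EGFR 1.00 times. The other AREG probe exceeded it 1.65 times although its arrays differed in sign. The means of ERBB2 and of the detected probes of ERBB3 and TGFA were smaller than that error.

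The windows around the transcription start of the 4 genes lower on both arrays are shown because these genes had the same sign on both arrays (RefSeq, GRCh38.p14, from 250 bases before to 50 after the start, on the strand of the gene). Capitals mark matches, on both strands, to 3 motifs, which are the GC box GGGCGG bound by Sp1, the cyclic AMP response element TGACGTCA and the AP-1 site TGANTCA. The EGFR window, the one of 2 with the lower coordinates, is chr7:55018767-55019066 (plus strand), EREG is chr4:74364895-74365194 (plus strand), AREG is chr4:74444886-74445185 (plus strand) and HBEGF is chr5:140346554-140346853 (minus strand).
EGFR: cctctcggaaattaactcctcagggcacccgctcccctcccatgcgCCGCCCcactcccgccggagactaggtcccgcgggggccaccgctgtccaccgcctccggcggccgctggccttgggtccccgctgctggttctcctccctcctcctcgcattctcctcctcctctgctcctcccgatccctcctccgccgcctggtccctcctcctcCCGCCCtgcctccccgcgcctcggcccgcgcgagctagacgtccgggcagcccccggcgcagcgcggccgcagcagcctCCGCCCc
EREG: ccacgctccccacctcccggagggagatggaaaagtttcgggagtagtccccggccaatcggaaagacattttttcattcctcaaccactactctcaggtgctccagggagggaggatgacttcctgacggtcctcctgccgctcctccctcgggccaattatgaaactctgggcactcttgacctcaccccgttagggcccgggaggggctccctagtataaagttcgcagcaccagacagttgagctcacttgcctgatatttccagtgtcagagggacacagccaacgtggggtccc
AREG: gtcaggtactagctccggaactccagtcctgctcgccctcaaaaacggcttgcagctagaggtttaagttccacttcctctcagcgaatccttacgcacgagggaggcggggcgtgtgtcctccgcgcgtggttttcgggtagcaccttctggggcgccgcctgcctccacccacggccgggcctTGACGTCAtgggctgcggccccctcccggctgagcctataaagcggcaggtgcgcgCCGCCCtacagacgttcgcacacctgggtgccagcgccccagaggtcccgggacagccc
HBEGF: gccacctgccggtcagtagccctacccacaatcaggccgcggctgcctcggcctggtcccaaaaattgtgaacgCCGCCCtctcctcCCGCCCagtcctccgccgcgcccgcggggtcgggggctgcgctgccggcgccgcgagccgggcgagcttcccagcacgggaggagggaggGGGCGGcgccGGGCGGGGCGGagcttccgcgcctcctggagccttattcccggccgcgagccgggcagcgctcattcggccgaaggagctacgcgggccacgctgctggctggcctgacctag
GC boxes were found 3 times in the EGFR window, 5 times in that of HBEGF and once in that of AREG, and none in that of EREG, and 45.0% of the 35116 windows in the table hold at least 1. The cyclic AMP response element was in the AREG window alone among the 10 windows of 8 members, and in 1.85% of all windows. AP-1 sites were in none of the 4 windows printed, but 2 were in the other EGFR window and 1 in that of ERBB2. At least 1 was in 7.71% of all windows. GC boxes were in 6 of the 10 member windows, including a TGFA window with 4 and the BTC window with 1, so they were not limited to the genes printed. The ERRFI1 window, of the gene higher on both arrays, held 1 GC box and neither of the other motifs. No motif was in all 4 windows. EREG, AREG and BTC lie with EPGN, the gene of a further EGFR ligand, on chromosome 4.

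Further genes of the pathway, chosen from general knowledge but with earlier results of these data known, showed both directions. Their shares are set beside those of all genes as a description, not as a test. Of 56 listed, 49 were measured, of which 19 were lower with pre-miR-424 on both arrays (38.8%, against 26.7% of all genes) and 18 higher (36.7%, against 26.8%). Their mean ratios had a median of 0.02. Past a log2 ratio of −0.3 on both arrays were 5 of them (10.2%, against 2.62% of all genes), and past 0.3 was 1 (2.04%, against 2.77%). Only FOSL1 passed 1.5-fold, as 0.391% of all genes did in that direction.

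Of the further receptor and ligands, ERBB4, EGF, NRG2 and NRG3 were not measured, while EPGN, NRG1 and NRG4 were lower on both arrays. EPGN encodes epigen and read 357 against 519 and 441 against 595, for −0.54 and −0.43 (mean −0.49 ± 0.08, SD, n = 2 arrays). The neuregulin gene NRG4 read −0.18 and −0.69, and NRG1, which encodes a ligand of ERBB3 and ERBB4, read −0.05 and −0.03. With the members, 6 of the 7 measured ligand genes of 11 listed were lower on both arrays, against 26.7% of all measured genes, and 1, TGFA, was not, and their median was −0.28. The 6 include AREG, whose shared direction was lost under median centring. Of the 6 genes for ligand shedding, which include the protease genes ADAM10 and ADAM17, 3 were higher on both arrays and none was lower. Of all measured genes 26.8% were higher and 26.7% lower. ADAM10 counted as higher with 0.16 on the normal labelling and 0.0037 on the dye swap, which is close to 0.

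Genes downstream of the receptor were counted by role. Of 11 transcripts induced by ERK signalling, 8 were higher on both arrays and 1 was lower, against 26.8% and 26.7% of all measured genes, with a median of 0.20. IER3, an immediate early gene, read 47536 with pre-miR-424 against 33451 on the normal labelling and 48669 against 37504 on the dye swap, for 0.51 and 0.38 (mean 0.44 ± 0.09, SD, n = 2 arrays), and its other probe had a mean of 0.35. DUSP4, DUSP5, DUSP6, EGR1, FOS, JUN and PHLDA1 were also higher on both, with means between 0.16 and 0.38. FOSL1, which encodes the AP-1 subunit FRA1, read 2852 against 4427 and 2752 against 4329, for −0.63 and −0.65 (mean −0.64 ± 0.01, SD, n = 2 arrays), the only one of its list lower on both arrays, while ETV4 and ETV5 had opposite signs on the arrays. Under median centring IER3 read 0.87 and −0.0026, so its direction on both arrays was not kept, and the other 5 genes past 0.3 in size kept theirs. Over all further pathway genes, those higher on both arrays fell from 18 to 15 under median centring. The list of ERK-induced transcripts was not counted alone there, so its 8 of 11 may also depend on the loess curve.

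**Figure D4:**
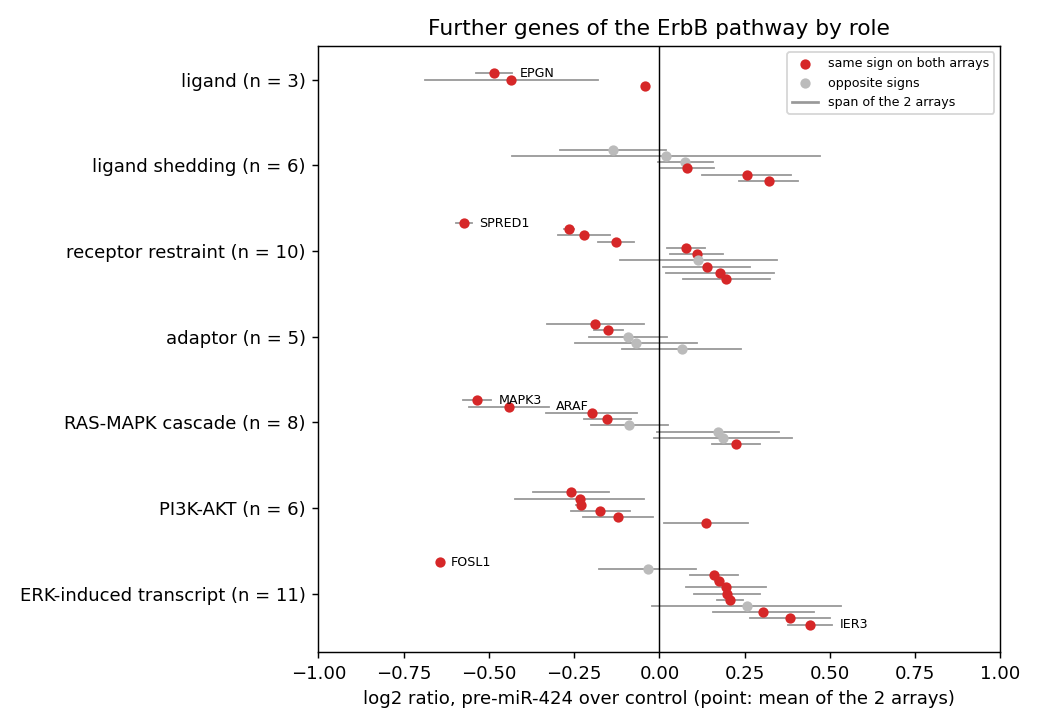
Log2 ratio of pre-miR-424 over control (horizontal axis) for the 49 measured further genes of the pathway, grouped by role, with a point at the mean and a grey line between the 2 arrays. Points of the transcripts induced by ERK lie mostly right of 0, apart from FOSL1 at −0.64, and 5 of the 6 PI3K-AKT genes lie left of 0.

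Each count of the remaining groups stands beside 26.7% of all measured genes lower on both arrays and 26.8% higher, and the lists are short. In the RAS-MAPK cascade 4 of 8 measured genes were lower on both arrays and 1, MAP2K1, was higher. MAPK3, the gene of the kinase ERK1, read 347 against 489 and 330 against 492, for −0.49 and −0.58 (mean −0.53 ± 0.06, SD, n = 2 arrays), and ARAF, one of the RAF kinases, read −0.32 and −0.56 (mean −0.44 ± 0.17, SD, n = 2 arrays). Among PI3K-AKT genes 5 of 6 were lower on both arrays, against 26.7% of all measured genes, with a median of −0.20 over all 6. The 5 include PIK3CA, which read only −0.02 on the dye swap. They also include AKT2, whose 2 other measured probes had means of −0.16 and 0.18. Of 10 measured genes of receptor restraint 4 were lower and 5 higher. The 5 include SPRY1, SPRY2 and SOCS4, which read only 0.01, 0.02 and 0.02 on the normal labelling. They also include CBLB, whose other measured probe had a mean of −0.16. SPRED1, an inhibitor of RAS-MAPK signalling, read 1163 against 1760 and 1181 against 1730, for −0.60 and −0.55 (mean −0.57 ± 0.03, SD, n = 2 arrays), the lowest of that group. Of 5 adaptor genes 2, GRB2 and SHC1, were lower on both and none was higher.

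**Figure D5:**
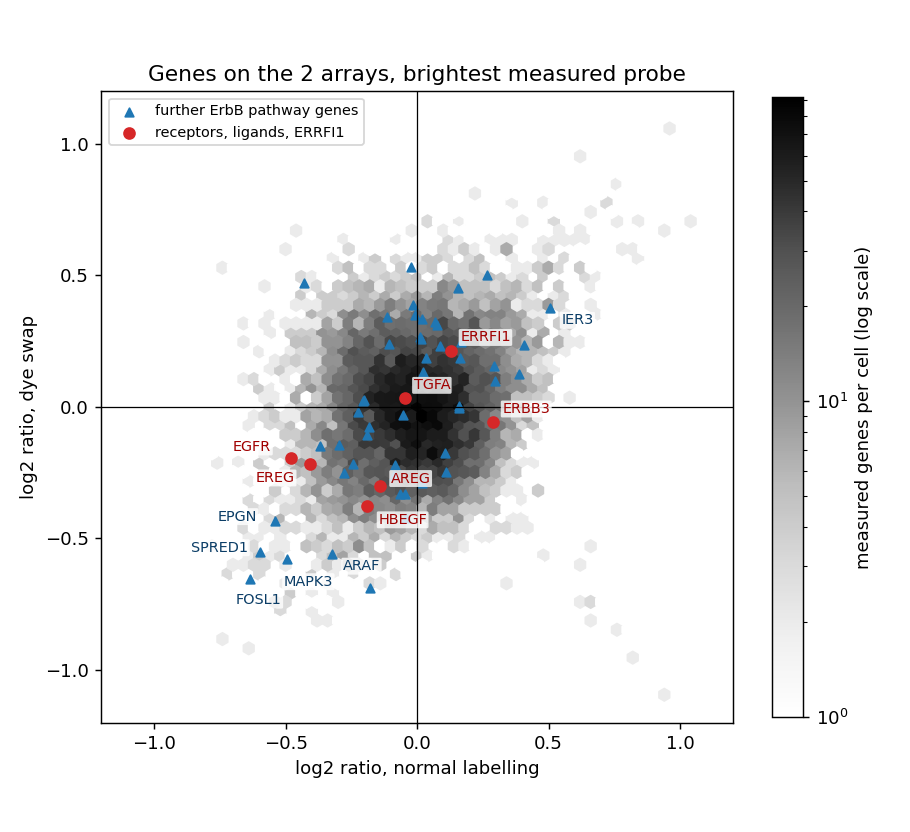
Log2 ratio on the normal labelling (horizontal axis) against the dye swap (vertical axis) for the 13812 measured genes, with shading for the number of genes in each cell on a log scale, circles for the 7 measured members and triangles for the 49 measured further genes. EGFR, EREG, HBEGF and AREG lie in the lower left, inside the bulk of all genes, while FOSL1, SPRED1, MAPK3 and EPGN lie towards its edge, and 42 genes fall outside the axes at ±1.2.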

How the data were processed

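Total RNA of RWPE-1 cells was amplified and dye-coupled, and the pre-miR-424 and control RNAs were hybridised together on 2 arrays with exchanged dyes, per the labels, which also gave groups and dyes. The deposited scanner files give, per spot and channel, the median intensity and its local background on a linear scale, not normalized, and processed intensities that the scanner software corrected for background and dye. A further deposited column is that software's log10 ratio (red over green). The value table of the authors holds log2 ratios, and their notes name limma, without a version. Its scale and direction are not stated, and against the values here its ratios were log2 of Cy5 over Cy3 on both arrays, unturned and without added centring (median absolute differences of 0.000563 and 0.000786, column medians of 0.0236 and 0.0355).

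Median signals were background-corrected in limma 3.58.1 (R 4.3.3) with the normexp method (offset 50, all spots). Control spots were left out, each array was normalized by loess, spots of a probe were averaged and ratios were turned to pre-miR-424 over control. Intensities named as levels were also scaled by Aquantile. A repeated probe had to be well above background at more than 50% of its spots. Median signals of non-control spots were 165 to 189 in Cy3 and 290 to 314 in Cy5, over median backgrounds of 28 to 29 and 69 to 70, and 2 arrays of 1 replicate limit the precision. Of 27134 probes with a RefSeq accession, 25771 were named through a RefSeq gene table (GRCh38.p14), used for names and neighbours only, since the array design is on hg19.

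The members and lists were chosen with earlier results of these data known. All members were named, with further pathway genes at a log2 ratio of 0.3 or more in size with 1 sign on both arrays. No genes of like pattern were sought, since 1 contrast gives no pattern. Other genes of the lists were named after their values were seen, and some are not reported here by name. A change counted past 2-fold or 1.5-fold if both arrays passed with equal sign. The steps were tested on simulated data, where 2-fold calls recovered 98 of 100 probes changed by a log2 ratio of 2 in size. Of 100 changed by 1.2 they recovered 48, with 0 false calls, so changes just past 2-fold can be missed. The simulated noise was drawn separately for each spot, whereas the EGFR spots of 1 array differed less than the arrays did. In the data recovery may therefore be lower and false calls more frequent than simulated. Alternatives tried were a normexp offset of 16, uncorrected signals, median centring, the software's and the authors' ratios, each array alone, other filters, averaging all probes of a gene and a threshold on the mean ratio. Tables and plots were made in Python 3.11.15 (numpy 2.4.6, pandas 2.3.3, matplotlib 3.10.9).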

Additional observations from a re-analysis of the deposited data

How the results depend on the processing

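No member probe passed 2-fold under any of the alternatives, and none passed 1.5-fold except with the normal labelling alone, where the single-spot AREG probe did (0 to 1 probes over either array alone). The median log2 ratio over member genes was −0.22 and stayed between −0.23 and −0.22 under the alternative corrections, normalizations and ratios and with the mean over a gene's probes. It was −0.14 with the normal labelling alone and −0.19 with the dye swap alone, −0.14 with outlier spots kept, which brings in ERBB2, and −0.11 with no filter on dim probes, which brings in BTC. Among further pathway genes the counts of 18 higher and 19 lower ranged from 15 to 19 and from 15 to 21 under the alternatives that used both arrays. Counts of member probes by direction under other corrections were added after seeing the data: those lower on both arrays were 7, or 8 under median centring, where the brighter AREG probe left and the other AREG probe and the first TGFA probe came in, and those higher on both were 1, but 0 under median centring and 2 with the software's ratios, which bring in the brighter ERBB3 probe. The mean over both arrays of each of the 13 probes well above background kept its sign under 5 alternatives. Trends with dye and intensity enter the 2 turned arrays with opposite signs and largely cancel in such a mean. A kept sign, or a steady median of these means, is therefore weak information on how firm the ratios are. The authors' ratios were also nearly the same as those used here. No paired analysis was possible because the arrays are 2 readings of the same RNAs. Dim probes (BTC, 1 ERBB3 probe) limit what can be said of those transcripts.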
